A study of Mus musculus with 3 samples.

Results

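Dnmt1, Dnmt3a, Dnmt3b, Tet1, Tet2, Tet3 and Mbd2, the mouse genes for the DNA methyltransferases, the TET dioxygenases and a methyl-CpG binding protein, were taken by name from the deposited gene tables. All 7 names were found among 81881 rows, of which 55536 are annotated genes and 22028 protein-coding genes of GENCODE release M21. The tables describe polyA-selected RNA of regulatory T cells (Tregs) that had experienced inflammation, from a male adult mouse of 16 weeks of the strain Foxp3GFP-DTRCD4CreERT2R26tdTomato. That name joins a Foxp3 reporter (GFP with the diphtheria toxin receptor), an inducible Cre under Cd4 and a tdTomato reporter at R26. The labels do not say how the inflammation was produced, nor whether the toxin receptor or the Cre had been activated. There was 1 group of 3 libraries, called library 1, 2 and 3, which the labels give as technical replicates of 1 biological replicate from 1 donor. No other condition was present, so the values are levels, and no value speaks of differences between animals. Every SD is the spread between these 3 libraries (n = 3), or between those kept where 1 was left out.

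DNA methylation in mammals is a methyl group on cytosine, mostly where cytosine precedes guanine (CpG). DNMT1 copies the pattern to the new strand when DNA is replicated, and DNMT3A and DNMT3B set new marks, while the TET enzymes oxidize the methyl group and so open a route to its loss. Some of the proteins with a methyl-CpG binding domain, MBD2 among them, read the mark. In Tregs, lasting Foxp3 expression is known to depend on a demethylated intronic element of Foxp3, for which TET2 and TET3 are needed, and DNMT1 is needed for Treg function in mice.

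The libraries held 17494966 to 20942875 expected counts over annotated genes. The 5 T cell markers summed to 6168 to 7194 TPM (the deposited transcript abundance, scaled for length and depth) and the 5 Treg markers, Foxp3 among them, to 1422 to 1754 TPM, with all 10 detected in each library. Of other cell types, 4 of 5 erythroid markers were detected and the 5 summed to 1091 to 1742 TPM, 4 of 5 B cell markers to 67.5 to 78.3 TPM, 4 of 5 myeloid markers to 32.8 to 44.5 TPM, 1 of 2 CD8 T cell markers to 16.7 to 22.3 TPM and 2 of 3 natural killer cell markers to 5.88 to 15.2 TPM. None of these markers was at 0 in every library. The part of such cells in the levels below was not tested, and in bulk RNA fewer expressing cells and less RNA per cell cannot be told apart.

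All 7 genes reached 1 TPM in every library, which counts as detected here, as did 47.4% of protein-coding genes (10436 genes). By gene TPM, Dnmt1 was the highest, Tet2, Tet3, Dnmt3a and Mbd2 lay in the middle, and Tet1 and Dnmt3b were the lowest. Much of this level was assigned to transcripts that are annotated as non-coding, as retaining an intron or as incomplete. The transcripts with a complete coding sequence (an annotated start and stop codon, a class chosen after the values had been seen) gave another order, in which Tet1 was the lowest.

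**Figure D1:**
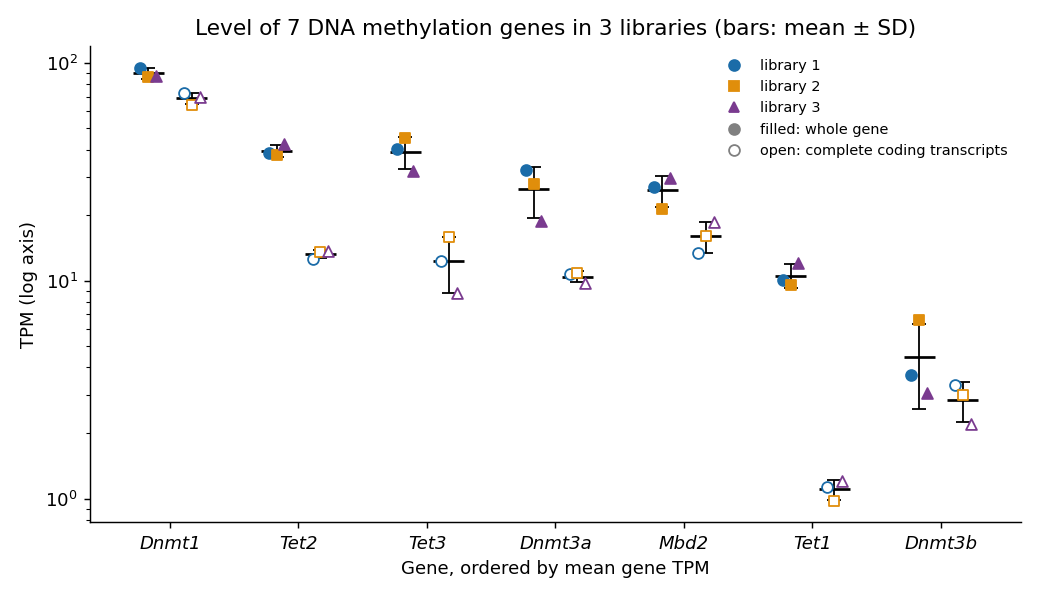
TPM (log axis) of the 7 genes in libraries 1, 2 and 3, with filled symbols for the whole gene and open symbols for its complete coding transcripts; horizontal bars are means and error bars SD (n = 3 libraries). Dnmt1 is the highest on both scales, and Tet1 drops from 10.6 TPM for the gene to 1.10 TPM for its complete coding transcript.

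Among the writers of methylation, Dnmt1, the maintenance methyltransferase, stood at 95.1, 86.1 and 87.1 TPM in the libraries in order. The 3 values lay close together, at 89.4 ± 4.91 TPM, rank 1966 among protein-coding genes. The expected counts behind them were 5201, 4238 and 4555. Dnmt1 lies on the minus strand at chr9:20907209-20959888 (mm10, as all positions here).

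Dnmt3a, the main de novo methyltransferase of mature T cells, was measured at 32.3, 27.8 and 18.9 TPM, with expected counts of 1629, 1449 and 1162. Library 3 was the lowest, and the mean was 26.3 ± 6.84 TPM (rank 5164). Dnmt3b, the second de novo enzyme, which is best known from the early embryo, was measured at 3.71, 6.59 and 3.06 TPM from 170, 175 and 110 expected counts. Library 2 was the highest by TPM, although its count was near that of library 1. The mean of Dnmt3b was 4.45 ± 1.88 TPM (rank 8984). Dnmt3a lies at chr12:3806007-3914443 and Dnmt3b at chr2:153649450-153687730, both on the plus strand.

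Of the oxidizing enzymes, Tet2 was measured at 38.5, 37.8 and 42.2 TPM from 1894, 1864 and 1898 expected counts. Its 3 values lay close together, at 39.5 ± 2.36 TPM (rank 4043), although its counts differed between libraries in the test given below. Tet3 was measured at 40.2, 45.3 and 32.0 TPM from 2247, 2405 and 1657 expected counts. Its mean of 39.2 ± 6.71 TPM (rank 4072) was next to that of Tet2, but library 3 was low where the Tet2 value was high. Tet1, which is best known from embryonic stem cells and the germ line, was measured at 10.03, 9.56 and 12.1 TPM from 370, 312 and 371 expected counts. Its mean was 10.6 ± 1.35 TPM (rank 7441), and library 3 was the highest. All 3 genes lie on the minus strand, Tet1 at chr10:62804570-62908996, Tet2 at chr3:133463679-133545139 and Tet3 at chr6:83362373-83459084.

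Mbd2, which binds methylated CpG and brings the NuRD repressor complex to it, was measured at 27.0, 21.4 and 29.6 TPM from 412, 393 and 474 expected counts. Library 2 was the lowest, and the mean of 26.0 ± 4.19 TPM (rank 5207) was level with that of Dnmt3a. Mbd2 lies at chr18:70568189-70626131 on the plus strand.

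The 21 pairs of these genes were compared within each library as the difference of log2(TPM + 1), and a pair was called apart where the difference had 1 sign in all 3 libraries and its mean was over 2 SD. By this rule 16 of the 21 pairs were apart. Down the order of means, Dnmt1 exceeded Tet2 by 1.16 ± 0.13 (apart). Tet2 and Tet3 differed by 0.02 ± 0.33 (not apart), and Tet3 exceeded Dnmt3a by 0.57 ± 0.23 (apart). Dnmt3a and Mbd2 differed by -0.00 ± 0.54 (not apart), since Dnmt3a was the higher in libraries 1 and 2 and the lower in library 3. Mbd2 exceeded Tet1 by 1.22 ± 0.13 (apart), and Tet1 was higher than Dnmt3b by 1.13 ± 0.61 (not apart). The other pairs that were not apart were Tet2 with Dnmt3a and Tet3 with Mbd2. The call for Tet3 and Dnmt3a was lost without library 2 (0.52 ± 0.30) and without library 3 (0.50 ± 0.26). The call for Dnmt3a and Tet1 was lost without library 1 (1.02 ± 0.60) and without library 2 (1.10 ± 0.70). Without library 3, Tet2 and Dnmt3a (0.34 ± 0.13), Tet3 and Mbd2 (0.80 ± 0.35) and Dnmt3a and Mbd2 (0.31 ± 0.08) were apart, and without library 2 Tet1 and Dnmt3b were (1.46 ± 0.33). Each SD given with a library left out is of 2 values only.

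Summed by family, the methyltransferases stood at 131, 121 and 109 TPM and the TET genes at 88.7, 92.6 and 86.3 TPM. The ratio of these sums was 1.48, 1.30 and 1.26, above 1 in each library (1.35 ± 0.11). Dnmt1 made up 74.6 ± 4.59% of the methyltransferase sum, Dnmt3a 21.7 ± 3.86% and Dnmt3b 3.70 ± 1.53%. Tet2 and Tet3 made up 44.4 ± 4.14% and 43.8 ± 6.05% of the TET sum, and Tet1 11.9 ± 1.92%. On complete coding transcripts the ratio of the sums was 3.33, 2.58 and 3.45 (3.12 ± 0.47), Dnmt1 held 83.8 ± 1.55% of the methyltransferase sum, and Tet1 held 4.22 ± 0.93% of the TET sum.

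The transcript tables divide each gene's TPM among its annotated transcripts. Where transcripts share most of their sequence this division is a model estimate, and short transcripts gain TPM from few counts. Complete coding transcripts held 77.0 ± 2.70% of the TPM of Dnmt1, 69.0 ± 22.3% of Dnmt3b, 62.4 ± 12.6% of Mbd2, 41.3 ± 9.34% of Dnmt3a, 33.6 ± 1.83% of Tet2, 31.0 ± 3.74% of Tet3 and 10.5 ± 0.69% of Tet1. Over the 10436 detected protein-coding genes the median share was 78.7%, with the middle of the genes between 51.7% and 95.4%, and over the 6219 of them with at least 5 transcripts it was 67.0%. Tet1 was near the bottom, with a lower share in 4.39% of detected genes, and Dnmt1 was close to the median, with a lower share in 47.9%.

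**Figure D2:**
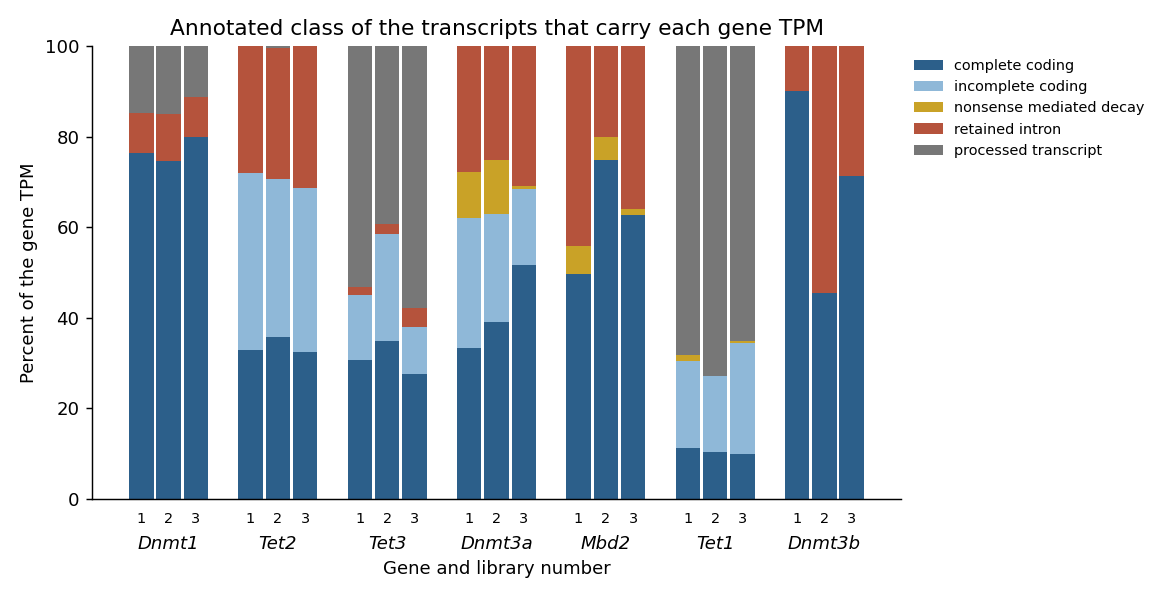
Percent of each gene's TPM (vertical axis) by the annotated class of its transcripts, for libraries 1, 2 and 3 of each of the 7 genes, ordered by mean gene TPM. Complete coding transcripts hold most of Dnmt1 (77.0% on average) and the smallest share of Tet1 (10.5%), where processed transcripts hold 68.7%.

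Dnmt3a makes a long protein, DNMT3A1, and from an internal promoter a short one, DNMT3A2, which lacks the amino-terminal end. The annotation has 18 Dnmt3a transcripts, of which 4 have a complete coding sequence, and the 1 not named here was at 0 in all 3 libraries. The long form is coded by Dnmt3a-201 and Dnmt3a-218, each of 23 exons with 2724 coding bases, which share a start codon at position 3835198. The short form is coded by Dnmt3a-203, of 19 exons with 2067 coding bases and a start codon at 3895573, which is 60375 bases further along. The sequences around their starts are shown because they tell the promoters apart; they are RefSeq's for GRCm38.p6 (the mm10 assembly), plus strand, 250 bases before to 50 after the start, with every CpG in capitals. The window of the long form is chr12:3806910-3807209, at the start of Dnmt3a-218, and that of the short form is chr12:3891494-3891793.
Dnmt3a-218 (long form): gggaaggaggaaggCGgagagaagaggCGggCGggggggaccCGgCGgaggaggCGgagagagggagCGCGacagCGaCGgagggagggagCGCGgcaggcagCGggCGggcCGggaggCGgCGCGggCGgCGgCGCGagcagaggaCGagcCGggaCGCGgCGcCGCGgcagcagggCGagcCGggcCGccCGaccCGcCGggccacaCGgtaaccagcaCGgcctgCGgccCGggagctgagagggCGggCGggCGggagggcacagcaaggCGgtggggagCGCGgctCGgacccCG
Dnmt3a-203 (short form): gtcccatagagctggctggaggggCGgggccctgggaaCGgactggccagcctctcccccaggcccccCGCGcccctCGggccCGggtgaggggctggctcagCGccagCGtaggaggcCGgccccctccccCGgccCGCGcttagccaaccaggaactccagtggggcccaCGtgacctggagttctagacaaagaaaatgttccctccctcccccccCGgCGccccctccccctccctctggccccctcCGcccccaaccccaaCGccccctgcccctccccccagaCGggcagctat

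The long-form window held 47 CpG (the letters CG, which read the same on both strands) and the short-form window 18. Of 32851 promoter windows of this length, 1.44% held at least 47 and 29.7% at least 18, against a median of 7. Any CpG at all was found in 94.6% of them. These are counts of letters, and methylation itself was not measured here.

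Dnmt3a-201 was measured at 6.50, 5.13 and 4.83 TPM and Dnmt3a-218 at 3.31, 4.34 and 3.35 TPM. Dnmt3a-203 was measured at 0.95, 1.36 and 1.54 TPM, below the long form in each library. The short form thus held 8.83%, 12.6% and 15.8% of the summed level of these 3 transcripts, or 12.4 ± 3.51%. By expected counts it held 7.64 ± 2.28%. When incomplete coding transcripts with either of these start codons were added to their form, it held 17.2 ± 6.82% of TPM. Coding transcripts with neither start codon, such as Dnmt3a-211 and Dnmt3a-204, were left out of this share. Only 47 of the 5375 stretches of 50 bases in Dnmt3a-203 occur in no other Dnmt3a transcript, and the lower bound of its deposited interval was close to 0 in libraries 2 and 3. The difference between libraries in the short-form share was not tested for that reason.

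The highest Dnmt3a transcript by TPM was Dnmt3a-202, a retained-intron transcript of 1944 bases from the start of the gene, at 6.13, 6.12 and 4.90 TPM. It held 22.3 ± 3.51% of the gene's TPM but 9.48 ± 0.17% of its counts, and 1260 of its 1895 stretches of 50 bases occur in no other transcript of the gene. The 2 long-form transcripts together stood at 1.60, 1.55 and 1.67 times its level. Among the other transcripts, Dnmt3a-206, an incomplete coding transcript, stood at 4.56, 2.09 and 0.00 TPM, and Dnmt3a-215, a target of nonsense-mediated decay, at 3.26, 3.28 and 0.11 TPM, while the incomplete Dnmt3a-211 was level over the libraries at 1.99, 1.95 and 1.91 TPM. The sum of complete coding transcripts was 10.8, 10.8 and 9.72 TPM, so the libraries were closer together there (10.4 ± 0.62 TPM) than for the gene. The deposited intervals for Dnmt3a-215 start near 0 in all 3 libraries, so its level is weakly determined. In libraries 1 and 2 its TPM also lay above the upper bounds of these intervals (3.16 and 2.68). Of the 778 stretches of 50 bases in Dnmt3a-206, 0 occur in no other transcript of the gene. Its level, and its fall to 0.00 TPM in library 3, thus rest on the model's division.

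**Figure D3:**
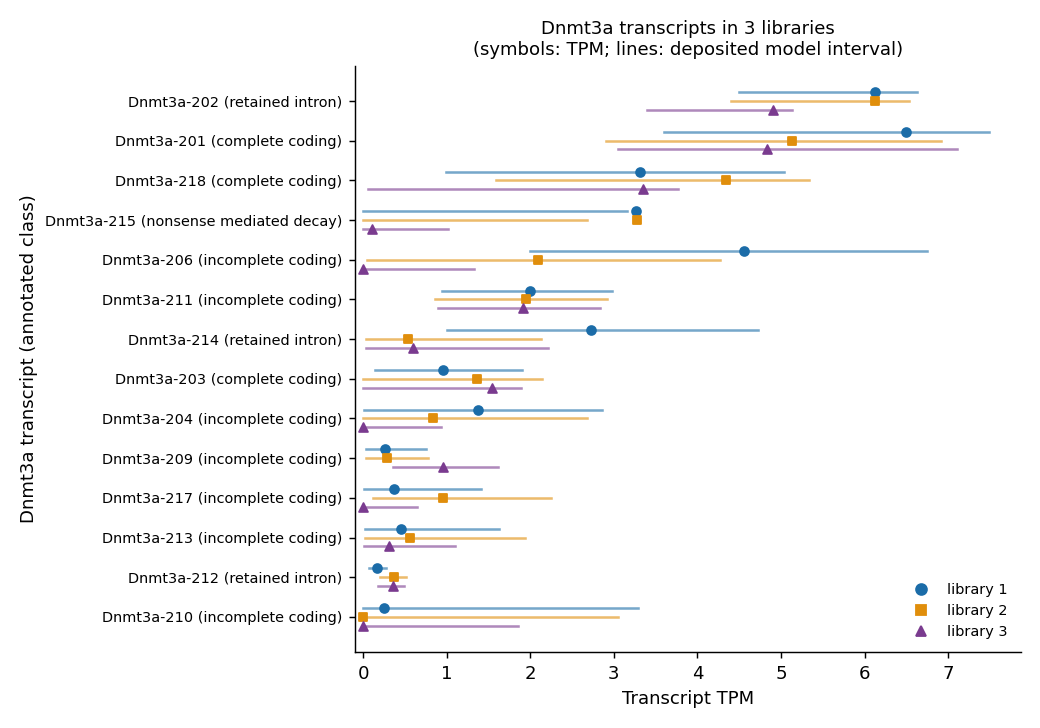
TPM of the Dnmt3a transcripts with a level above 0 in libraries 1, 2 and 3 (symbols), with the interval of the quantification model that the authors deposited (lines), and the annotated class in brackets. Dnmt3a-202 and the long-form transcripts Dnmt3a-201 and Dnmt3a-218 are at the top, the short form Dnmt3a-203 is between 0.95 and 1.54 TPM, and Dnmt3a-206 and Dnmt3a-215 are at or near 0 in library 3.

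Dnmt1 was divided mainly between 2 complete coding transcripts with different starts. Dnmt1-201, with 4860 coding bases, was measured at 47.7, 34.4 and 45.8 TPM. Dnmt1-202, which starts upstream and has 4503 coding bases, was measured at 23.6, 28.7 and 22.1 TPM. Dnmt1-201 was the higher in each library, by 2.02, 1.20 and 2.07 times. In mice an upstream first exon of Dnmt1 is known from oocytes, where it gives a protein without the amino-terminal end. Whether reads crossed the first exon of Dnmt1-202 cannot be seen in these tables, and 154 of its 5199 stretches of 50 bases occur in no other Dnmt1 transcript (182 of 5318 for Dnmt1-201). The windows around the 2 starts are shown because they differ in CpG, again from RefSeq for GRCm38.p6, minus strand, 5′ to 3′, with CpG in capitals, at chr9:20952930-20953229 and chr9:20959839-20960138.
Dnmt1-201: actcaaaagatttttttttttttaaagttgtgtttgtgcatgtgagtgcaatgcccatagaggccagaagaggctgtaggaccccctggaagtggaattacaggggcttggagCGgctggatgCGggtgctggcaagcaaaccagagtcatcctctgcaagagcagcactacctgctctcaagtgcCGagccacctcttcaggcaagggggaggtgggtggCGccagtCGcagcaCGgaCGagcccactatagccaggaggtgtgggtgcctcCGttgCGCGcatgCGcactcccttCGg
Dnmt1-202: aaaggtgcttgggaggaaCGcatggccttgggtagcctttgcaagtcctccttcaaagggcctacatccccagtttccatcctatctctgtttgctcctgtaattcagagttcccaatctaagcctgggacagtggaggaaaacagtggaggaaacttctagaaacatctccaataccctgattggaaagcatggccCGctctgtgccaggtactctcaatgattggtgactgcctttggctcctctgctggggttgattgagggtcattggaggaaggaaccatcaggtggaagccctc

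The window of Dnmt1-201 held 12 CpG, as many or more being found in 39.6% of promoters, and that of Dnmt1-202 held 2, as many or more being found in 85.9%. Downstream of both, the window at the start of Dnmt1-203 (chr9:20952574-20952873) held 33, as many or more being found in 8.56%. Dnmt1-203 itself stood at 1.32, 1.13 and 1.74 TPM. Another transcript, Dnmt1-205, a processed transcript of 607 bases, was measured at 14.1, 13.0 and 9.84 TPM.

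Tet1 was carried by a non-coding transcript. Tet1-202, a processed transcript of 3 exons and 1505 bases, was measured at 6.85, 6.97 and 7.87 TPM, and Tet1-206, of 13 exons and 14369 bases and the 1 complete coding transcript with a level above 0, at 1.13, 0.98 and 1.20 TPM. Tet1-202 was 6.06, 7.11 and 6.56 times the higher. By expected counts the order turned, with 55.4 ± 1.45% on Tet1-206 and 37.0 ± 1.92% on Tet1-202, since the coding transcript is far longer. Tet1-202 has 167 of 1456 stretches of 50 bases to itself.

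Tet3 was likewise led by a processed transcript, Tet3-201, at 21.4, 17.8 and 18.5 TPM (50.1 ± 9.63% of the gene). By expected counts the order turned here too, with 54.4 ± 4.08% on Tet3-202 and 28.6 ± 5.86% on Tet3-201. TET3 protein is made with and without an amino-terminal CXXC domain that binds CpG. Tet3-202, with 5004 coding bases, stood at 8.26, 10.9 and 6.64 TPM, and Tet3-203, which has the longer coding sequence of 5409 bases, at 4.05, 4.87 and 2.15 TPM. Between these complete transcripts the shorter sequence was the higher in each library, by 2.04, 2.24 and 3.09 times. This leaves out an incomplete coding transcript of 469 bases, whose start codon lies upstream of that of Tet3-203. It stood at 5.77, 10.6 and 3.31 TPM, and its deposited interval starts near 0 in library 3. Added to Tet3-203, it would turn the order in libraries 1 and 2 but not in library 3. Which form it belongs to was not tested. The complete coding sum of Tet3 was 12.3, 15.8 and 8.79 TPM, with library 2 high and library 3 low as for the gene.

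The complete coding level of Tet2 lay in Tet2-201, at 12.6, 13.5 and 13.6 TPM. A fragment of 423 bases, Tet2-205, was as high, at 15.1, 13.2 and 15.3 TPM, and the retained-intron transcript Tet2-210 stood at 8.06, 7.48 and 8.81 TPM. For each of these transcripts the 3 values lay close together.

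Mbd2 was led by Mbd2-201, the higher of its 2 complete coding transcripts, at 12.8, 15.5 and 17.4 TPM. The low gene value of library 2 came with its retained-intron transcript of 494 bases, which stood at 11.4, 3.89 and 10.3 TPM, while the complete coding sum was 13.4, 16.0 and 18.5 TPM. For Dnmt3b the division was unstable. Its highest coding transcript, Dnmt3b-206, stood at 1.83, 0.00 and 1.52 TPM, and the retained-intron transcript Dnmt3b-212 at 0.37, 2.46 and 0.62 TPM. The sum over complete coding transcripts of Dnmt3b was 3.34, 3.00 and 2.19 TPM, so the high gene value of library 2 lay outside them.

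On complete coding transcripts the order was Dnmt1 (68.8 ± 4.23 TPM), Mbd2 (16.0 ± 2.56), Tet2 (13.2 ± 0.56), Tet3 (12.3 ± 3.51), Dnmt3a (10.4 ± 0.62), Dnmt3b (2.84 ± 0.59) and Tet1 (1.10 ± 0.11). The difference of Tet1 and Dnmt3b turned to -0.86 ± 0.28 on the log2(TPM + 1) scale, and that of Tet2 and Mbd2 to -0.24 ± 0.17. Again 16 of 21 pairs were apart, but not the same 16. Tet2 with Mbd2 and Tet3 with Dnmt3a (0.18 ± 0.32) were no longer apart. Tet2 with Dnmt3a (0.32 ± 0.12) and Tet1 with Dnmt3b now were.

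Genes that overlap the 7 could share reads with them, and the labels name no strand setting for the counting. The antisense genes Dnmt3aos and Dnmt3bos stood at 0.16 and 0.12 TPM on average and Gm42567, which meets Tet2, was listed at 0. Within Tet3, 5430434F05Rik stood at 1.34 TPM and the microRNA gene Mir6374 at 12.9 TPM from 15, 8 and 5 expected counts. Gm48353, within Tet1, stood at 0.25 TPM. Each of these overlapping genes other than Mir6374 was well under the gene it overlaps.

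The 3 libraries were then compared by a Pearson chi-square test of expected counts against Poisson sampling, with edgeR TMM scaling and Benjamini-Hochberg adjustment over all 14877 genes tested. Of all genes 63.9% differed between libraries (9501 genes), and of the 7 genes 6 did, all but Tet1. A count of 6 of 7 is therefore read against a background where most genes differ. Each adjusted p beside the values that follow is of the test over all 3 libraries, not of library 3 against the others. As log2 of library 3 over the mean of the other libraries, Tet3 stood at -0.41 (adjusted p = 1.41e-29), Dnmt3a at -0.32 (adjusted p = 3.13e-09) and Dnmt3b at -0.56 (adjusted p = 0.00131). Mbd2 stood at 0.32 (adjusted p = 0.000887), Tet2 at 0.10 (adjusted p = 0.00161), Dnmt1 at 0.04 (adjusted p = 4.05e-05) and Tet1 at 0.21 (adjusted p = 0.0920). Library 3 was thus low for Tet3, Dnmt3a and Dnmt3b and high for Mbd2. For Dnmt1 library 2 was the lowest and library 1 the highest. For Tet2 library 1 was the lowest, with log2 deviations from the mean of the libraries of -0.10, 0.04 and 0.07 in order. The difference of Dnmt1 was not called without library 2 (adjusted p = 0.414) and that of Tet2 not without library 1 (adjusted p = 0.673), where Tet1 was called (adjusted p = 0.0465), as it was over all 3 libraries when scaled by total counts (adjusted p = 0.0110, by the same chi-square test). Without library 3, 30.2% of genes differed and 3 of the 7 genes did, namely Dnmt1, Tet2 and Tet3.

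Library 3 stood apart with the GC content of transcripts. Over 9305 protein-coding genes its deviation had a Spearman rho of -0.53 with the peak GC content of the transcript, taken over 200-base windows and given here as a description over genes that share these libraries. The median deviation was 0.14 on the log2 scale for windows of 50 to 60% GC (2018 genes), 0.04 for 60 to 70% (4254 genes), -0.90 for 70 to 80% (2371 genes) and -0.09 above that (407 genes). Dnmt3a and Tet3 both had 70.5% GC in this measure, Dnmt1 66.5%, Tet2 59.5%, Tet1 55.5% and Mbd2 88.0%. With the trend on GC removed, Dnmt3a turned to 0.21 (adjusted p = 0.000250) and Tet3 to 0.13 (adjusted p = 1.72e-11), so their low value in library 3 was not found there. These p are again of the test over all libraries. For Tet3 the log2 deviations of libraries 1, 2 and 3 were then -0.18, 0.10 and 0.09, so library 1 was the lowest. The Dnmt3b measure depended on the transcript chosen, at 56.0% GC for its highest transcript by TPM and 77.5% for that of most counts. With the trend on the former removed, Dnmt3b stood at -0.69 (adjusted p = 4.48e-05), and with that on the latter at 0.15 (adjusted p = 0.421). Mbd2 was no longer called with the trend removed, at 0.06 (adjusted p = 0.779), or 0.01 (adjusted p = 0.983) by the transcript of most counts. However, 99.8% of these genes had a lower peak GC than Mbd2, so its correction rests on the edge of the fit. The fit lowered Mbd2 although the median deviation above 80% GC was -0.09. Whether the Mbd2 difference goes with GC was therefore not settled. With the trend removed 58.7% of genes and 5 of the 7 differed.

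**Figure D4:**
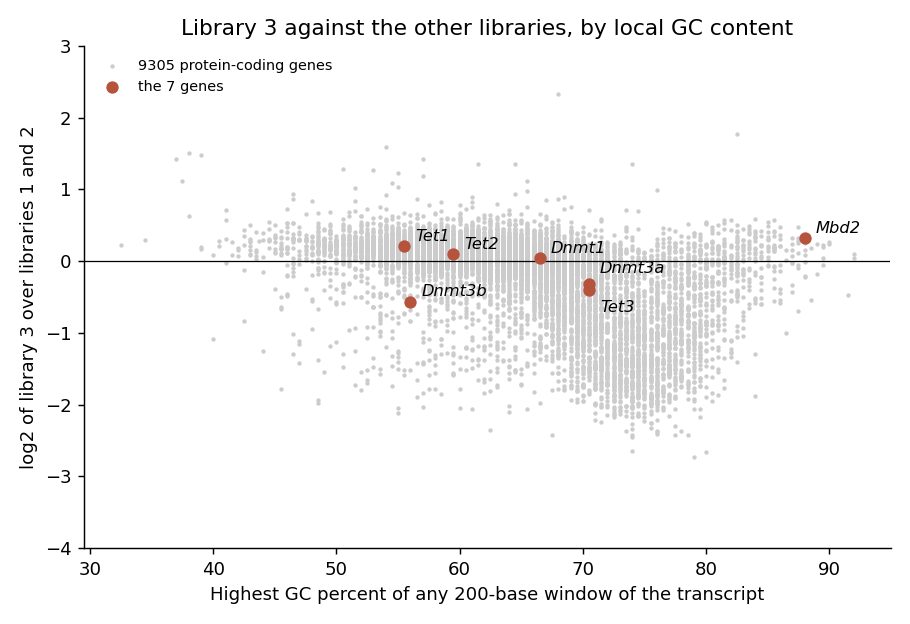
Deviation of library 3, as log2 over the mean of libraries 1 and 2 (vertical axis), against the peak GC percent over 200-base windows of the transcript of highest TPM (horizontal axis) for 9305 protein-coding genes (grey) and the 7 genes (red); 2 grey genes lie outside the axis. Dnmt3a and Tet3, both at 70.5% GC, lie below 0 at the edge of the low cloud, and Mbd2, at 88.0% GC, lies above 0.

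A second table of whole-number counts, for GENCODE release M4, gave 3613, 3080 and 3300 counts for Dnmt1, 582, 507 and 348 for Dnmt3a and 109, 93 and 62 for Dnmt3b. It gave 287, 232 and 256 for Tet1, 1167, 1145 and 1150 for Tet2, 1115, 1151 and 795 for Tet3 and 189, 136 and 162 for Mbd2. Library 3 was again the lowest for Dnmt3a, Dnmt3b and Tet3. The second table held 33.6% of the first table's counts for Dnmt3a, and the median over 9227 genes was 45.5%. In it 56.8% of genes differed between libraries and 4 of the 7 genes did, with Dnmt3b at an adjusted p of 0.0517 and Mbd2 at 0.109 by the same chi-square test with edgeR scaling.

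The genes that work with these enzymes were described from 11 lists with 87 genes. Of these genes 69 were detected, and 59 of the 72 that could be tested differed between libraries, as did 63.9% of all genes. Among the partners of DNMT1 in maintenance, 9 of 10 were detected. Pcna, the sliding clamp that DNMT1 binds at the replication fork, was the highest, at 136, 122 and 164 TPM, and Zbtb24, mutated in a human methylation disorder, followed at 45.5 ± 3.93 TPM. Hells, a chromatin remodeller needed for methylation of repeats, stood at 16.5, 14.8 and 4.07 TPM and was low in library 3 (log2 of -1.12). Dppa3, which keeps UHRF1 from chromatin in the oocyte, was listed at 0 in all 3 libraries. Of the 8 genes of replicating cells, all were detected, with Mcm2 (60.4 ± 2.48 TPM) and Mcm5 (52.4 ± 5.19 TPM), of the replicative helicase, the highest, and Ccnb1 (9.67 ± 2.36 TPM) and the proliferation marker Mki67 (7.18 ± 0.11 TPM) the lowest.

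Around DNMT3A and DNMT3B, 3 of 5 genes were detected. Nsd1, a histone methyltransferase whose mark DNMT3A reads, stood at 71.9, 88.5 and 94.4 TPM and Kdm1b, a histone demethylase, at 32.7, 30.8 and 16.3 TPM. Dnmt3l, the cofactor of the germ line, stood at 0.06 TPM on average with no whole count, and Dnmt3c, the rodent germline enzyme, was listed at 0. The 5 genes of the methyl donor cycle were all detected, from Mat2a, which makes S-adenosylmethionine, at 329.9 ± 38.3 TPM and its partner Mat2b at 210.0 ± 43.4 TPM to Ahcy, which clears the by-product of methylation, at 25.6 ± 4.33 TPM.

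On the removal side, 5 of 6 oxidation partners were detected. Ogt, the sugar transferase that TET2 and TET3 bind, was the highest, at 322, 302 and 342 TPM, and Dcaf1, a ligase subunit that acts on TET proteins, stood at 44.6 ± 3.88 TPM. Cxxc5, a CXXC protein that binds TET2, stood at 4.81 ± 0.49 TPM and its relative Cxxc4 at 0.01 TPM. All 12 excision and repair genes were detected, with Parp1 (75.1 ± 5.56 TPM) and Xrcc1 (62.1 ± 4.52 TPM) the highest and the glycosylases Neil3 (2.06 ± 0.23 TPM) and Neil2 (1.99 ± 0.56 TPM) the lowest. Of the deaminases, Apobec3, an antiviral factor, was the highest at 429 ± 19.6 TPM, Apobec1 followed at 24.8 ± 2.90 TPM, and Apobec2 stood at 4.47 ± 0.40 TPM.

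Among 8 other genes listed as methyl-CpG readers or as relatives of such readers, 7 were detected. Mbd1 (73.5 ± 5.04 TPM) and Mbd5 (40.2 ± 2.70 TPM) were the highest, Zbtb4 stood at 4.87 ± 0.10 TPM, and Zbtb33, which encodes Kaiso, was the lowest, at 0.94, 1.52 and 1.28 TPM. All 11 NuRD genes were detected. Rbbp4, a histone chaperone (313 ± 19.9 TPM), and Hdac1, a histone deacetylase (290.3 ± 25.4 TPM), were the highest, and Gatad2b (11.6 ± 0.57 TPM) and Mta1 (3.12 ± 0.70 TPM) the lowest.

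Of 12 germline genes that methylation is known to hold silent in mouse somatic cells, 0 were detected at 1 TPM in each library. Their sum was 0.86 to 1.20 TPM, and 4 were at 0 in every library, Tdrd1 and Tex101 among them. Brdt was the highest, at 0.62, 0.69 and 0.92 TPM, and Dazl followed at 0.16 TPM. All 6 genes known to be demethylated in Tregs were detected, Tnfrsf18 (589 ± 60.9 TPM) and Ikzf2 (331 ± 58.3 TPM) the highest and Ikzf4 (113 ± 23.2 TPM) and Foxp3 (77.6, 86.2 and 59.2 TPM) the lowest. By TPM Foxp3, like Tet3, was highest in library 2 and lowest in library 3. The same order was found for other listed genes, among them Xrcc1 (60.9, 67.1 and 58.3 TPM), Cxxc5 and Apobec2. A link between Foxp3 and Tet3 was not tested. RNA levels alone give no methylation state for any of these genes.

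**Figure D5:**
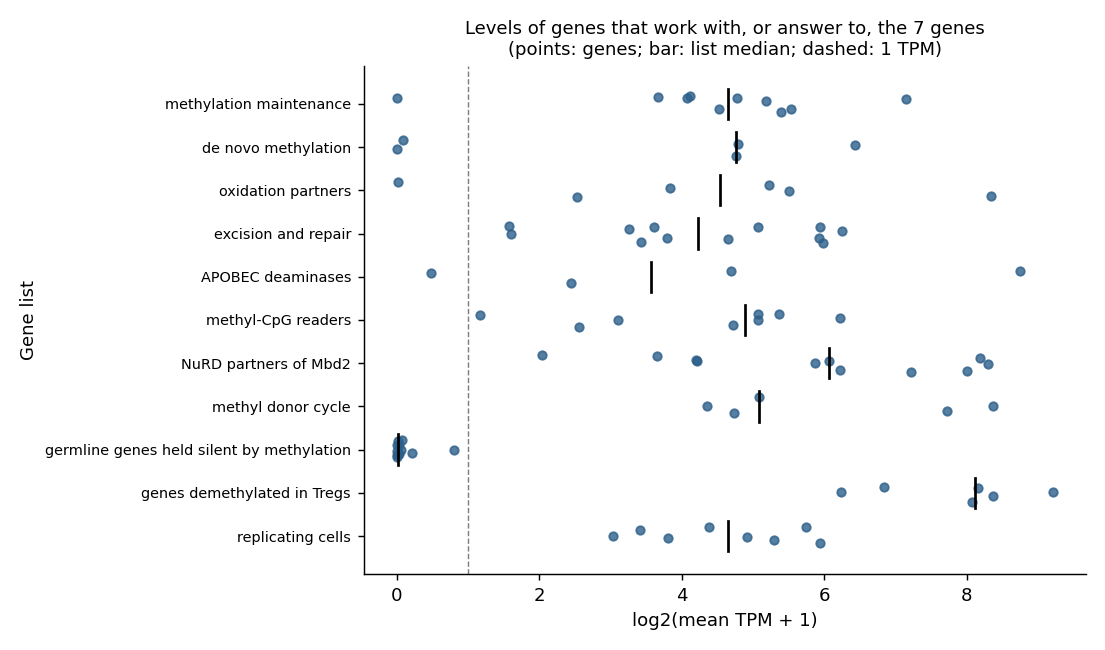
Levels as log2(mean TPM + 1) over 3 libraries (horizontal axis) of the genes of 11 lists (vertical axis), with a point per gene, a bar at the list's median and a dashed line at 1 TPM. All 12 germline genes lie left of the line and all 6 genes demethylated in Tregs lie far right of it.

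The genes whose levels were most like each of the 7 were taken as the nearest pair by Euclidean distance over log2(TPM + 1) in the 3 libraries, among 9309 protein-coding genes. They were Thumpd3 and Ccar2 for Dnmt1, Rsph3b and Uck2 for Dnmt3a, Atp1b1 and Egr3 for Dnmt3b, Acad10 and Oasl2 for Tet1, Galnt7 and Snrpd2 for Tet2, Jkamp and Secisbp2 for Tet3, and Tyw5 and Zfp322a for Mbd2. Uck2, for example, stood at 31.5, 27.2 and 17.9 TPM. Like Dnmt3a it was low in library 3, which follows from its choice by these same values. The likeness was uneven, with Galnt7 at a distance of 0.0048 from Tet2 but Atp1b1 at 0.19 from Dnmt3b. With 3 libraries this is a likeness of levels.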

How the data were processed

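PolyA-selected RNA was sequenced in 3 libraries of 1 group, grouped and numbered by the labels' technical replicate numbers; fragments were made by shearing, per the labels. Which aligner and counter were used is not given here. Gene and transcript tables were deposited with an expected count (estimated by a model), TPM and FPKM per row, for mm10 and GENCODE M21, per the file headers and the text beside the files. The transcript tables also hold each transcript's percent of its gene's TPM and an interval for TPM, per the file headers. For some transcripts the deposited TPM lies outside its interval. A second deposited gene table holds a whole-number count per gene for GENCODE M4, with 5056487 to 6339932 counts a library; the labels name no counting rule for it.

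Expected counts were rounded. Departure from Poisson sampling was tested by Pearson chi-square (2 degrees of freedom) for every gene averaging 10 or more counts, with TMM library sizes from edgeR 4.0.16 in R 4.3.3 and a Benjamini-Hochberg threshold of 0.05. The test speaks of these libraries, not of animals. DESeq2 1.42.0 gave alternative size factors. Levels are TPM as deposited, detected at 1 TPM in each library; pairs used a pseudocount of 1, which understates differences of low genes. For the GC trend, each library's log2 deviations were fitted by lowess (fraction 0.3) over protein-coding genes averaging 100 or more counts. The fitted trend then scaled each gene's library sizes in the chi-square test and was taken out of its log2 values. The test was tried only on counts simulated by Poisson sampling, which is its own assumption. That trial cannot show how the test behaves on counts estimated by a model. Python 3.11.15, pandas 2.3.3, scipy 1.17.1 and statsmodels 0.14.6 were used.

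The named genes are the 7 genes, the 2 highest and 2 lowest of each list, members under 1 TPM where there are 4 or fewer, and the 2 nearest genes to each of the 7; some genes that it takes are not reported here. Genes and lists were chosen with earlier results of these data known. The lists were assembled from general knowledge of the pathways. Alternatives were other scalings, filters, tables, pseudocounts and detection limits, a GC trend, and leaving out each library; complete coding transcripts and GC by the transcript of most counts were added after seeing the data.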

Additional observations from a re-analysis of the deposited data

How the results depend on the processing

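No paired analysis was possible because there is 1 group. The count of genes differing between libraries was 9501 and moved to 6212 with the M4 table, and was 4489 to 8029 leaving out each library in turn, lowest without library 3; the 7 genes then gave 3 to 6 calls. The ratio of methyltransferase to TET sums was 3.12 on complete coding transcripts. The short-form share of Dnmt3a was 7.64% by expected counts and 17.2% with incomplete coding transcripts of either start codon added. For library 3 over the others, the sign turned for Dnmt3a (0.21, and 0.20 by the transcript of most counts), Tet3 (0.13 and 0.11) and Tet2 (-0.0053 and -0.0011) with the GC trend removed, for Dnmt3b (0.15) with that trend by the transcript of most counts, and for Dnmt1, which ranged from -0.029 to 0.105 leaving out each library. The call was lost for Mbd2 with either GC trend removed and for Dnmt3b and Mbd2 in the M4 table, and gained for Tet1 by total counts (0.29). Among pairs, Dnmt3a exceeded Mbd2 by 1.68 in scaled expected counts and 1.51 in the M4 table, and ranged from -0.19 to 0.31 leaving out each library; Mbd2 against Tet1 was -0.66 in the M4 table, and on complete coding transcripts Tet2 against Mbd2 was -0.24 and Tet1 against Dnmt3b -0.86. Neither count scale corrects for length. The causes were not tested, beyond the change each setting makes. Pairs called apart numbered 15 to 20 over the settings. Depth limits Dnmt3b, Tet1 and Mbd2, which rest on at most 474 expected counts a library, and the division among transcripts, which share most of their sequence.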
